A study of Mus musculus with 23 samples.

Results

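A set of 10 genes of the glucocorticoid response was followed in striatal microglia. They were the glucocorticoid receptor gene Nr3c1, 7 genes that the receptor is known to induce (Tsc22d3, Fkbp5, Sgk1, Ddit4, Klf9, Errfi1 and Zbtb16), and Glul and Sult1a1. They were found as the 10 rows of the deposited count matrix that carry these symbols, of 35976 genes in all. The genes were chosen from earlier results on these same libraries, with their levels and group differences known. Their fold changes and p-values below therefore describe the genes and are not independent support for a response. All 10 passed the filter on low counts, which kept 16121 genes.

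Glucocorticoids, corticosterone in the mouse, cross the cell membrane and bind a receptor held in the cytoplasm by the Hsp90 chaperone system. The bound receptor enters the nucleus and switches on genes at response elements made of an AGAACA and a TGTTCT half-site with a short gap between them. In microglia and other macrophages the hormone is known for restraining inflammatory genes, and its level in blood follows the time of day.

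The cells were striatal microglia of C57BL/6J male mice, 9 weeks old, that pressed levers for intravenous infusions. Abstinence mice (7 libraries) self-administered methamphetamine at 0.05 mg/kg per infusion in daily 2 hr sessions for 15 days and then spent 21 days in the home cage without it. Maintenance mice (8 libraries) took the same drug on the same schedule, and Saline mice (8 libraries) took saline, and in both groups the cells were collected right after the last session. All mice thus carried a catheter and had operant sessions. The 23 libraries hold no saline group kept through the 21 days, so drug history, age and home cage time cannot be told apart in Abstinence against Saline. The labels list the tissue as neuronal and the same methamphetamine treatment for all 3 groups, while the group label and the cell type label separate Saline from the drug groups and name microglia. No label says that libraries of a group came from separate mice, so p-values measure the spread between these libraries, which may be technical.

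Libraries held 71224927 to 94827095 counts in Abstinence, 54970954 to 94562470 in Maintenance and 55378997 to 84640226 in Saline. The 8 microglial markers (Tmem119, P2ry12, Cx3cr1 and others) were present in every library and summed to 48521 to 56356 CPM (counts scaled to a common library total) in Abstinence, 38284 to 56826 CPM in Maintenance and 45857 to 58561 CPM in Saline, and edgeR called 0 of 8 in any comparison (0 to 3 of 8 had an unadjusted p under 0.05, and DESeq2 called 0). Libraries that stood apart were Maintenance 6, 7 and 8 and Saline 6. Maintenance 6 and 7 had 12459 and 12740 genes with a count above 0, against 14727 or more in every other library, and the highest sums of the 8 endothelial markers, 2316 and 1443 CPM. Maintenance 8 held the 8 choroid plexus and ependymal markers at 75232 CPM, against 104 to 322 CPM in the other Maintenance libraries. Saline 6 held the 8 neutrophil markers at 764 CPM, against 41.6 to 420 CPM in the other Saline libraries, the highest sum of the 6 monocyte markers (165 CPM, against 39.0 to 82.8 CPM in the others) and the lowest sum of oligodendrocyte markers (626 CPM). By the mean log2 CPM of the neutrophil markers, the covariate used below, Saline 6 stood at 2.97, under Saline 2, 4 and 5 (3.42, 3.54 and 5.29). The glucocorticoid genes were read with and without Maintenance 6, 7 and 8, and with and without Saline 6 and Maintenance 8. Without Maintenance 6, 7 and 8, the called genes of the set were the same in both comparisons with Maintenance: Tsc22d3 was at 0.56 in Maintenance against Saline (adjusted p 0.0486) and -0.59 in Abstinence against Maintenance (0.0266), and Glul at 0.43 (0.00135) and -0.57 (4.07e-05), all log2 fold changes from edgeR. Sult1a1 kept its call in Abstinence against Maintenance (adjusted p 3.17e-05). In these bulk libraries fewer cells of a type and less RNA per cell cannot be told apart.

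Of the set, 3 genes differed between the methamphetamine groups. Tsc22d3, Glul and Sult1a1 were lower in Abstinence than in Maintenance, by between 0.52 and 0.91 on the log2 scale. Tsc22d3 and Glul were also higher in Maintenance than in Saline. Neither the receptor gene nor Sgk1, the most abundant of the targets, passed the test in any comparison. Genes were called at an adjusted p under 0.05 in edgeR's quasi-likelihood test over all 16121 genes. By that rule, 2 of the 10 rose in Maintenance against Saline, where 0.707% of all tested genes were called. In Abstinence against Saline 0 of the 10 were called by edgeR, against 0.0186% of all tested genes. There, 2 of the 10 had an unadjusted p under 0.05 and DESeq2 called 2 (Fkbp5 and Sult1a1, both lower). In Abstinence against Maintenance 3 of the 10 fell, where 0.949% of all tested genes were called. Nothing is read from these shares, since the same comparisons were known when the genes were chosen.

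The set did not move one way. The fold change was above 0 for 7 of the 10 in Maintenance against Saline, with a median of 0.38 on the log2 scale. It was above 0 for 4 of the 10 in Abstinence against Saline (median -0.07) and for 3 of the 10 in Abstinence against Maintenance (median -0.53). The median over all tested genes was 0.01 in each of these. The comparisons share libraries in pairs, so their fold changes are not independent of each other. Only Sult1a1, in Abstinence against Maintenance, had groups with no overlap, where 0.403% of all tested genes had none. In Maintenance against Saline and in Abstinence against Saline 0 of the 10 were without overlap, against 0.416% and 0.198% of all tested genes.

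**Figure D1:**
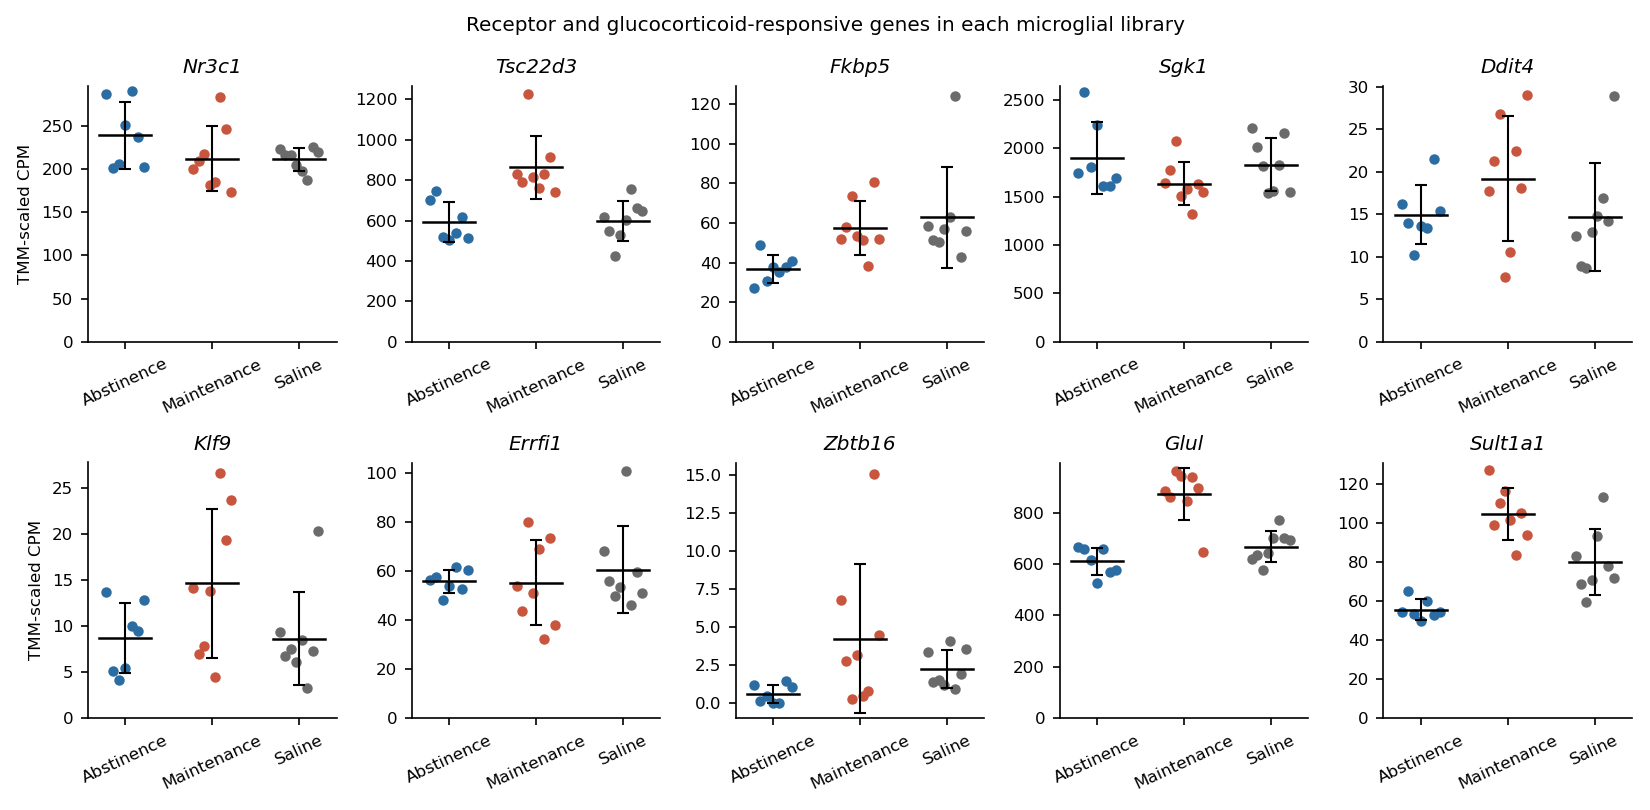
TMM-scaled CPM of each of the 10 genes on its own axis, with 1 point per library (7 Abstinence, 8 Maintenance, 8 Saline), a bar at the group mean and whiskers of 1 SD. The Sult1a1 points of Abstinence, 49.8 to 65.3 CPM, all lie under those of Maintenance, 83.6 to 127 CPM. The Zbtb16 axis starts under 0 because 1 SD reaches under 0 there.

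**Figure D2:**
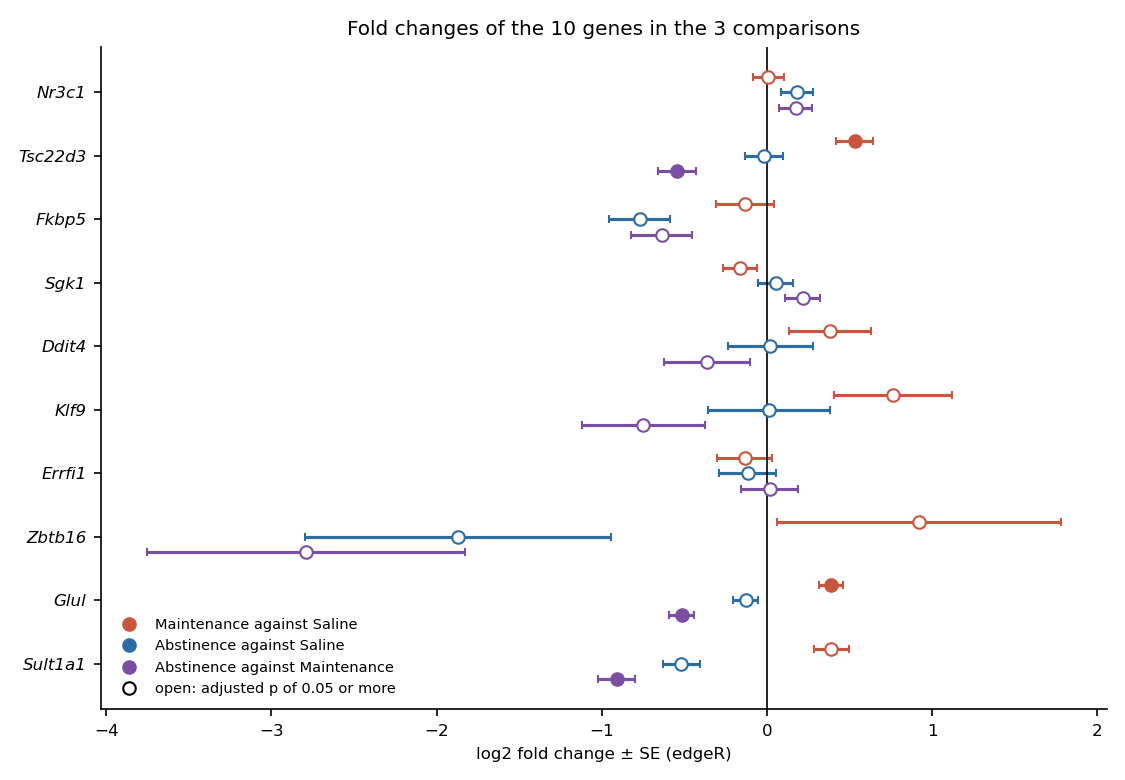
Log2 fold change with its SE for each gene in the 3 comparisons, with filled points for an adjusted p under 0.05 in edgeR. Filled points are Tsc22d3 and Glul in Maintenance against Saline, and Tsc22d3, Glul and Sult1a1 in Abstinence against Maintenance.

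Scaled for gene length (group mean CPM per kb of merged exons), the order of the mean levels was the same in every group. Sgk1 stood highest, with 387 in Abstinence, 333 in Maintenance and 374 in Saline. Glul (184, 263 and 201 in the same order of groups) and Tsc22d3 (136, 199 and 138) followed, then Sult1a1 (37.0, 69.5 and 53.1) and Nr3c1 (31.1, 27.6 and 27.5). Errfi1, Ddit4 and Fkbp5 lay between 3.89 and 16.9 CPM per kb in all groups. Klf9 stayed between 1.79 and 3.04 CPM per kb, and Zbtb16 was lowest, at 0.115, 0.80 and 0.42 CPM per kb. The libraries of Glul and Tsc22d3, neighbours in this order, overlapped in all 3 groups, those of Sult1a1 and Nr3c1 overlapped only in Abstinence, and those of Tsc22d3 and Sult1a1 in no group. Those of Sgk1 and Glul overlapped only in Maintenance (lowest Sgk1 269, highest Glul 290 CPM per kb). Every neighbouring pair from Nr3c1 down overlapped in at least 1 group.

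Nr3c1 encodes the receptor itself, a ligand-activated transcription factor. Its gene spans chr18:39410545-39519421 on the minus strand of GRCm38.p6. The level ran from 201 to 290 CPM with a median of 237 CPM in Abstinence, from 173 to 284 CPM with a median of 205 CPM in Maintenance, and from 187 to 225 CPM with a median of 216 CPM in Saline. The 3 ranges overlap, and the Saline libraries were the most alike. The log2 fold change was 0.01 ± 0.10 (SE) in Maintenance against Saline, 0.18 ± 0.10 in Abstinence against Saline and 0.17 ± 0.10 in Abstinence against Maintenance, with edgeR adjusted p of 0.991, 0.999 and 0.574 in that order of comparisons. The sign of the first turned under several alternatives. The related mineralocorticoid receptor gene Nr3c2, which also binds corticosterone, averaged 7.52 ± 2.39 CPM in Abstinence, 7.08 ± 4.78 CPM in Maintenance and 8.02 ± 1.34 CPM in Saline (SD). Hsd11b1, whose enzyme regenerates active corticosterone inside cells, averaged 1.13 ± 0.77 CPM in Abstinence, 1.76 ± 1.75 CPM in Maintenance and 0.91 ± 0.63 CPM in Saline.

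Chaperones of the receptor were called where the receptor gene was not, a difference that was not itself tested. Of 19 tested chaperones and cofactors (20 listed), 6 rose in Maintenance against Saline, 0 were called in Abstinence against Saline and 5 fell in Abstinence against Maintenance, with medians of 0.27, 0.08 and -0.17 on the log2 scale in that order. Of all tested genes, 0.707%, 0.0186% and 0.949% were called in the same order. This list too was chosen with earlier results of these data known. The smallest adjusted p among them in Abstinence against Saline was 0.658, 2 of 19 had an unadjusted p under 0.05 there, and DESeq2 called 0. Fkbp4 encodes FKBP52, the Hsp90 co-chaperone that raises the hormone affinity of the receptor and exchanges with the product of Fkbp5. It ran from 120 to 158 CPM (median 144) in Abstinence, from 169 to 235 CPM (median 190.0) in Maintenance and from 103 to 152 CPM (median 123) in Saline. Every Maintenance library lay above every library of both other groups. Of all tested genes, 0.416% had no overlap in Maintenance against Saline and 0.403% in Abstinence against Maintenance. The log2 fold change of Fkbp4 was 0.61 ± 0.09 in Maintenance against Saline (adjusted p 0.000612), 0.10 ± 0.09 in Abstinence against Saline (0.999) and -0.51 ± 0.09 in Abstinence against Maintenance (0.00564).

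The other called genes of that machinery were also highest on average in Maintenance. Hspa8, the constitutive Hsc70 chaperone, averaged 1733 ± 262 CPM in Abstinence, 3472 ± 405 CPM in Maintenance and 1866 ± 193 CPM in Saline (SD). Stip1, which links Hsp70 to Hsp90 while the receptor is loaded, averaged 59.2 ± 11.9, 124 ± 26.0 and 65.4 ± 6.29 CPM in the same groups. For both, no Maintenance library overlapped with either other group, beside the shares of all tested genes given above. Hsp90ab1, the constitutive Hsp90, averaged 1012 ± 277 CPM in Abstinence, 1463 ± 220 CPM in Maintenance and 872 ± 99.6 CPM in Saline, and Ncor1, a nuclear receptor corepressor, 40.7 ± 3.80, 56.7 ± 11.2 and 40.8 ± 3.26 CPM. The calls of Hspa8 and Stip1 held in every alternative tried. The call of Fkbp4 in Maintenance against Saline ended with neutrophil markers as a covariate (0.63, adjusted p 0.0525). That of Hsp90ab1 ended there in 1 of 11 alternatives and in 0 of 23 fits without 1 library. In Abstinence against Maintenance, Hsp90ab1 lost its call in 4 of 11 and 6 of 23 (adjusted p up to 0.103). Ncor1 lost its call in 3 of 11 and 6 of 23 in Maintenance against Saline (adjusted p up to 0.197). In Abstinence against Maintenance it did so in 1 of 11 and 2 of 23 (up to 0.0981). The log2 fold change in Maintenance against Saline ran from 0.55 to 0.66 for Fkbp4, from 0.66 to 0.77 for Hsp90ab1 and from 0.38 to 0.52 for Ncor1 over the 11 alternatives. Many of these genes are also targets of the heat shock response, and what moved them was not tested.

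Tsc22d3 encodes GILZ, a leucine zipper protein that binds NF-kB and AP-1 subunits and is among the most direct products of the receptor. It lies at chrX:140539528-140600522 on the minus strand of GRCm38.p6. The level was 504 to 746 CPM in Abstinence (median 538), 741 to 1226 CPM in Maintenance (median 823) and 424 to 755 CPM in Saline (median 612). Of the 8 Maintenance libraries, 7 lay above the highest Saline library, and 6 of the 7 Abstinence libraries lay under the lowest Maintenance one. The range of Abstinence lay inside that of Saline. Tsc22d3 rose by 0.53 ± 0.11 on the log2 scale in Maintenance against Saline (edgeR adjusted p 0.02) and fell by 0.55 ± 0.12 in Abstinence against Maintenance (adjusted p 0.0152). Its log2 fold change in Abstinence against Saline was -0.02 ± 0.11 (adjusted p 0.999).

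The 2 calls of Tsc22d3 differed in how they held. The fall in Abstinence against Maintenance passed in every alternative, with adjusted p of at most 0.048. The rise in Maintenance against Saline kept a fold change between 0.45 and 0.68 but lost its call without Saline 3 (adjusted p 0.0522), with oligodendrocyte and astrocyte markers as covariates (0.47, adjusted p 0.0976), with neutrophil markers as covariate (0.52, adjusted p 0.244) and with the replicate number as a block (0.53, adjusted p 0.0581). The 10 oligodendrocyte markers summed to 1787 to 4568 CPM in Abstinence, 1265 to 5166 CPM in Maintenance and 626 to 5212 CPM in Saline, the 10 astrocyte markers to 344 to 573, 416 to 605 and 351 to 622 CPM, and the 8 neutrophil markers to 10.2 to 137, 2.1 to 158 and 41.6 to 764 CPM. None of those tested (10, 10 and 6 markers) was called by edgeR in any comparison, with at most 6 oligodendrocyte, 2 astrocyte and 4 neutrophil markers at an unadjusted p under 0.05, and DESeq2 called at most 1, 1 and 2 of them. Those oligodendrocyte markers, 4 in Maintenance and 6 in Abstinence against Saline, were all higher than in Saline. The mean log2 CPM of the 10 averaged 7.05 ± 0.46 in Abstinence, 6.93 ± 0.74 in Maintenance and 6.19 ± 0.90 in Saline (SD). The oligodendrocyte covariate thus goes partly with group in comparisons with Saline. The 6 monocyte markers, of which edgeR called 0 and DESeq2 called Ly6c2 (lower in Maintenance against Saline), summed to 22.4 to 90.6 CPM in Abstinence, 30.0 to 68.6 CPM in Maintenance and 39.0 to 165 CPM in Saline, with 3, 0 and 0 at an unadjusted p under 0.05 in Maintenance against Saline, Abstinence against Saline and Abstinence against Maintenance. With group means taken off, their mean log2 CPM had a Pearson r of 0.36 with Tsc22d3 and 0.41 with Fkbp5 over 23 libraries, which share depth and cell makeup, and their part in these values was not tested. The neutrophil genes Mpo and Elane were at 0 in all Abstinence and all Maintenance libraries, and Ltf in all Abstinence libraries. The mean log2 CPM of the 8 neutrophil markers averaged 2.13 in Saline, -1.49 in Maintenance and -1.77 in Abstinence. In comparisons with Saline this covariate thus goes largely with group, and its fits cannot tell the 2 apart. For the Tsc22d3 rise the SE was 0.17 with it and 0.11 in the main fit. A call lost with it, for this or other genes, does not by itself show a smaller difference.

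RefSeq windows of 250 bases before to 50 bases after a transcript start (GRCm38.p6) were at hand for 8 of the 10 genes, 16 windows in all, and were searched on both strands for AGAACA and TGTTCT, which are reverse complements of each other. A half-site was in 5 of the 16 windows (31.25%), against 19.0% of all 32851 windows and 13.7% of the 15242 windows of tested genes. Sgk1 alone has 6 of the 16 windows and 3 of the 5 with a half-site, so the share is not one over genes. A full element, AGAACA then any 3 bases then TGTTCT, was in 1 of the 16, against 3 of the 32851 (0.00913%). Among the 15242 windows of tested genes it was in 1 (0.00656%), which is that same window, of Sgk1. A match describes the letters and is no evidence of binding. Tsc22d3 has 3 windows, and the one shown, at chrX:140600473-140600772 on the minus strand, has its half-site 185 bases before the start. It is given because Tsc22d3 was called in both comparisons with Maintenance. The other Tsc22d3 windows hold no half-site. Glul was called in the same comparisons, and its only window holds no half-site. The windows of Fkbp5, Ddit4, Klf9 and Errfi1 hold none either, and no window without a half-site is printed. Capitals mark half-sites.
Tsc22d3: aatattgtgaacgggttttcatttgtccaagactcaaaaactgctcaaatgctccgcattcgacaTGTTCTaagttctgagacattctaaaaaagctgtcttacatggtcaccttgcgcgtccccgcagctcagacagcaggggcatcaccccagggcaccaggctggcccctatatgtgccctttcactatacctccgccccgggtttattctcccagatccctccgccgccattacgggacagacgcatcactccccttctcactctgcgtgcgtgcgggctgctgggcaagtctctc

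Fkbp5 encodes FKBP51, the co-chaperone that lowers the hormone affinity of the receptor and closes a short feedback loop on it. Its level was 26.9 to 49.0 CPM in Abstinence (median 37.6), 38.1 to 80.8 CPM in Maintenance (median 52.7) and 42.7 to 124 CPM in Saline (median 56.6). Here the Abstinence libraries were low and the other groups overlapped: 6 of 7 Abstinence libraries lay under the lowest Saline library and 5 of 7 under the lowest Maintenance library. The highest Saline value, 124 CPM, came from Saline 6, and the next was 62.7 CPM. The log2 fold change was -0.77 ± 0.19 in Abstinence against Saline (unadjusted p 0.000323, adjusted p 0.218) and -0.64 ± 0.19 in Abstinence against Maintenance (adjusted p 0.0978). In Maintenance against Saline it was -0.13 ± 0.18 (adjusted p 0.876). Without Saline 6 the value in Abstinence against Maintenance was -0.65 with an adjusted p of 0.0171, and DESeq2 on all libraries gave an adjusted p of 0.0192 there and 0.0304 in Abstinence against Saline.

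Fkbp5 and Fkbp4, the exchanging pair, thus had different orders of groups. Fkbp4 was highest in Maintenance and close in Abstinence and Saline, while Fkbp5 was lowest in Abstinence and close in Maintenance and Saline. The difference between the 2 patterns was not tested.

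Sgk1 encodes a serum- and glucocorticoid-induced kinase that acts on ion transport and FoxO factors. Its level was 1612 to 2580 CPM in Abstinence (median 1746), 1319 to 2076 CPM in Maintenance (median 1606) and 1543 to 2208 CPM in Saline (median 1821). The groups overlapped throughout, with all 7 Abstinence libraries above the Maintenance median. The log2 fold change was -0.16 ± 0.10 in Maintenance against Saline, 0.05 ± 0.11 in Abstinence against Saline and 0.22 ± 0.11 in Abstinence against Maintenance, with adjusted p of 0.593, 0.999 and 0.471. Sgk1 was thus lowest in Maintenance, the group in which Tsc22d3 and Glul were highest, though none of its differences passed. Of 14 tested relatives of the set, 1 was called, Sgk3, a kinase recruited to endosomes. Of all tested genes, 0.707% were called in Maintenance against Saline and 0.949% in Abstinence against Maintenance. Sgk3 was called in both. It averaged 96.3 ± 16.2 CPM in Abstinence, 137 ± 13 CPM in Maintenance and 101 ± 12.0 CPM in Saline (SD). Sgk3 rose by 0.44 in Maintenance against Saline (adjusted p 0.0243) and fell by 0.51 in Abstinence against Maintenance (adjusted p 0.00915). The rise was 0.43 (adjusted p 0.0572) without Saline 3 and 0.48 (adjusted p 0.199) with neutrophil markers as covariate, so the call ended in both while the size stayed close.

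Sgk1 has 6 windows, and 3 of them hold a half-site. The window at chr10:21993640-21993939 on the plus strand holds the full element, which begins 189 bases before the start, and another half-site 242 bases before it. It is shown because it is the only window of the set with a full element, in a gene that was not called. Capitals mark half-sites.
Sgk1: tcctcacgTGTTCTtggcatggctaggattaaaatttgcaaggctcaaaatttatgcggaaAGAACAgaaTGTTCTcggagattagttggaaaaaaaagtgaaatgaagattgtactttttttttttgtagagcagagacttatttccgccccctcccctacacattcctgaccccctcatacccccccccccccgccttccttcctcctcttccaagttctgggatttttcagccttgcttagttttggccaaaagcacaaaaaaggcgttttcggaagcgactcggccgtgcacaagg

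Ddit4, Klf9 and Errfi1 did not pass the test in any comparison. Ddit4 encodes REDD1, an inhibitor of mTORC1. It was at 10.3 to 21.5 CPM in Abstinence (median 14.0), 7.56 to 29.0 CPM in Maintenance (median 19.7) and 8.74 to 28.9 CPM in Saline (median 13.5), and its log2 fold changes were 0.38 ± 0.25 in Maintenance against Saline, 0.02 ± 0.26 in Abstinence against Saline and -0.36 ± 0.26 in Abstinence against Maintenance (adjusted p 0.612, 0.999 and 0.713). Errfi1 encodes MIG6, a feedback inhibitor of the EGF receptor. It was at 48.2 to 61.5 CPM in Abstinence (median 56.2), 32.3 to 80.0 CPM in Maintenance (median 52.5) and 46.4 to 101 CPM in Saline (median 54.6), with adjusted p of at least 0.86 in the 3 comparisons. Its Abstinence libraries were the tightest of the 3 groups.

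Klf9 encodes a zinc finger repressor and is an early receptor target in brain. It was at 4.17 to 13.8 CPM in Abstinence (median 9.48), 4.49 to 26.6 CPM in Maintenance (median 14.0) and 3.34 to 20.3 CPM in Saline (median 7.40). All 7 Abstinence libraries lay under the Maintenance median, yet the ranges overlapped, and the log2 fold changes were 0.76 ± 0.36 in Maintenance against Saline, 0.01 ± 0.37 in Abstinence against Saline and -0.75 ± 0.37 in Abstinence against Maintenance (adjusted p 0.395, 0.999 and 0.471). Klf9 went with marker levels from library to library. With group means taken off, its log2 CPM had a Pearson r of -0.85 with the mean of the 8 microglial markers and 0.73 with the mean of the 8 endothelial markers over 23 libraries, which share depth and cell makeup. The endothelial markers summed to 343 to 1236 CPM in Abstinence, 370 to 2316 CPM in Maintenance and 399.7 to 1129 CPM in Saline, none at 0 throughout a group. Without Maintenance 6, 7 and 8 the log2 fold change of Klf9 was 0.13 in Maintenance against Saline (adjusted p 0.973) and -0.13 in Abstinence against Maintenance (0.98). The part of endothelial RNA in the Klf9 values was not tested.

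Zbtb16 encodes PLZF, a zinc finger factor that is among the strongest hormone targets in several cell types. In these microglia it was the lowest gene of the set and reached the floor of detection only in Abstinence. Libraries held 0 to 135 counts of it in Abstinence, 27 to 1288 in Maintenance and 64 to 280 in Saline. Abstinence libraries ran from 0 to 1.47 CPM (median 0.46, with 2 of 7 at 0), Maintenance libraries from 0.293 to 15.0 CPM (median 2.97) and Saline libraries from 0.893 to 4.08 CPM (median 1.70). Maintenance 7 alone gave 15.0 CPM, against 6.77 CPM for the next. All 7 Abstinence libraries lay under the medians of both other groups, and 4 of 7 lay under the lowest Saline library. The log2 fold changes were -2.79 ± 0.96 in Abstinence against Maintenance (unadjusted p 0.00743, adjusted p 0.187), -1.87 ± 0.93 in Abstinence against Saline (adjusted p 0.999) and 0.92 ± 0.86 in Maintenance against Saline (adjusted p 0.775).

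Glul encodes glutamine synthetase, which turns glutamate and ammonia into glutamine and is a classical hormone-induced gene. Its level was 525 to 668 CPM in Abstinence (median 616), 647 to 963 CPM in Maintenance (median 892) and 576 to 770 CPM in Saline (median 668; highest 769.9). Of 8 Maintenance libraries, 7 lay above every Abstinence and every Saline library, and the other was Maintenance 8, the library with choroid plexus markers, at 647 CPM. Glul rose by 0.39 ± 0.07 in Maintenance against Saline (edgeR adjusted p 0.00873) and fell by 0.52 ± 0.08 in Abstinence against Maintenance (adjusted p 0.000464), both on the log2 scale. In Abstinence against Saline its log2 fold change was -0.13 ± 0.08 (adjusted p 0.999), with all 7 Abstinence libraries under the Saline median. Group means were 610 ± 54.0 CPM in Abstinence, 873 ± 99.98 CPM in Maintenance and 668 ± 61.0 CPM in Saline.

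Glul is strongly expressed in astrocytes, so the astrocyte markers given above bear on it. With group means taken off, the log2 CPM of Glul had a Pearson r of 0.10 with the mean of the astrocyte markers over 23 libraries. With the mean of the oligodendrocyte markers the r was 0.33, and the part of RNA from either cell type in the Glul values was not tested. Among the marker lists its strongest r was -0.62, with the choroid plexus and ependymal markers, which were high in Maintenance 8. With oligodendrocyte and astrocyte markers as covariates, the rise in Maintenance against Saline was 0.31 ± 0.08 with an adjusted p of 0.0958, and with neutrophil markers it was 0.34 ± 0.11 with an adjusted p of 0.271, so both ended that call. The fall in Abstinence against Maintenance was -0.49 ± 0.08 (adjusted p 0.00157) and -0.52 ± 0.08 (adjusted p 0.000602) with the same covariates. The exons of Glul overlap those of the miRNA gene Mir8114 on the same strand and of Teddm2 on the other. Mir8114 was not called in any comparison, and Teddm2 did not pass the filter.

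Sult1a1 encodes a cytosolic sulfotransferase that conjugates phenols, catecholamines among them. It lies at chr7:126672865-126690443 on the minus strand of GRCm38.p6. Its level was 49.8 to 65.3 CPM in Abstinence (median 54.6), 83.6 to 127 CPM in Maintenance (median 104) and 59.6 to 113 CPM in Saline (median 75.1). Every Abstinence library lay under every Maintenance library, and 5 of 7 lay under the lowest Saline library. Sult1a1 fell by 0.91 ± 0.11 on the log2 scale in Abstinence against Maintenance (edgeR adjusted p 3.1e-05), to 0.533 of the Maintenance level. Its log2 fold change was -0.52 ± 0.11 in Abstinence against Saline (unadjusted p 7.97e-05, adjusted p 0.143) and 0.39 ± 0.11 in Maintenance against Saline (adjusted p 0.0879), with all 8 Maintenance libraries above the Saline median.

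Saline 6 held the highest Saline value of Sult1a1, 113 CPM, as it did of Tsc22d3, Fkbp5 and Glul. Without it, Sult1a1 in Maintenance against Saline was 0.48 ± 0.10 with an adjusted p of 0.0139, and without Saline 6 and Maintenance 8 it was 0.50 ± 0.10 with an adjusted p of 0.0105. It also passed there with DESeq2 (0.41, adjusted p 0.0152), with the filter of 1 CPM (0.41, adjusted p 0.0467) and with the 17 libraries of the second deposited table (0.63, adjusted p 0.00223), and missed in the 7 other alternatives (adjusted p 0.059 to 0.436). In Abstinence against Saline the call came with DESeq2 (-0.51, adjusted p 0.00914) and without Maintenance 6, 7 and 8 (-0.53, adjusted p 0.0476). An exon of Sult1a1 overlaps Sgf29 on the opposite strand by 61 bases. The strand of the reads is not stated, so reads there could belong to either gene, and Sgf29 itself was not called (adjusted p 0.287 in Maintenance against Saline, 0.999 in Abstinence against Saline and 0.11 in Abstinence against Maintenance).

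The Sult1a1 window, at chr7:126676369-126676668 on the minus strand, holds half-sites 212 and 34 bases before the start and no full element. It is shown for the gene with the largest called difference of the set. Capitals mark half-sites.
Sult1a1: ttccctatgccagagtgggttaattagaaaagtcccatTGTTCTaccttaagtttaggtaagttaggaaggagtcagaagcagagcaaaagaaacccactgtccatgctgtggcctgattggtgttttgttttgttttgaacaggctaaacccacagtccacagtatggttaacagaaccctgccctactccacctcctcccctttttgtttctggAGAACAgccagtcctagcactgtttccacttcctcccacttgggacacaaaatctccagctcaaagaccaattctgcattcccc

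Inside groups, a subset of the genes varied together from library to library. With group means taken off log2 CPM, Tsc22d3 and Glul had a Pearson r of 0.66 over 23 libraries, Fkbp5 and Sult1a1 0.65, Tsc22d3 and Sult1a1 0.59, Glul and Sult1a1 0.56, and Tsc22d3 and Fkbp5 0.46. The lowest value was -0.47, for Sgk1 and Klf9. The receptor gene had values of at most 0.42, with Klf9, and as low as -0.34, with Fkbp5 and Sult1a1. The points share library, depth and cell makeup, and the values are descriptions with no test. A few libraries carried several extremes at once. Abstinence 2 was highest of its group for Tsc22d3, Fkbp5, Sgk1 and Sult1a1, Maintenance 3 for Tsc22d3, Sgk1, Errfi1 and Glul, and Saline 6 for Tsc22d3, Fkbp5, Glul and Sult1a1. Saline 3 was lowest of its group for Tsc22d3, Ddit4, Glul and Sult1a1.

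**Figure D3:**
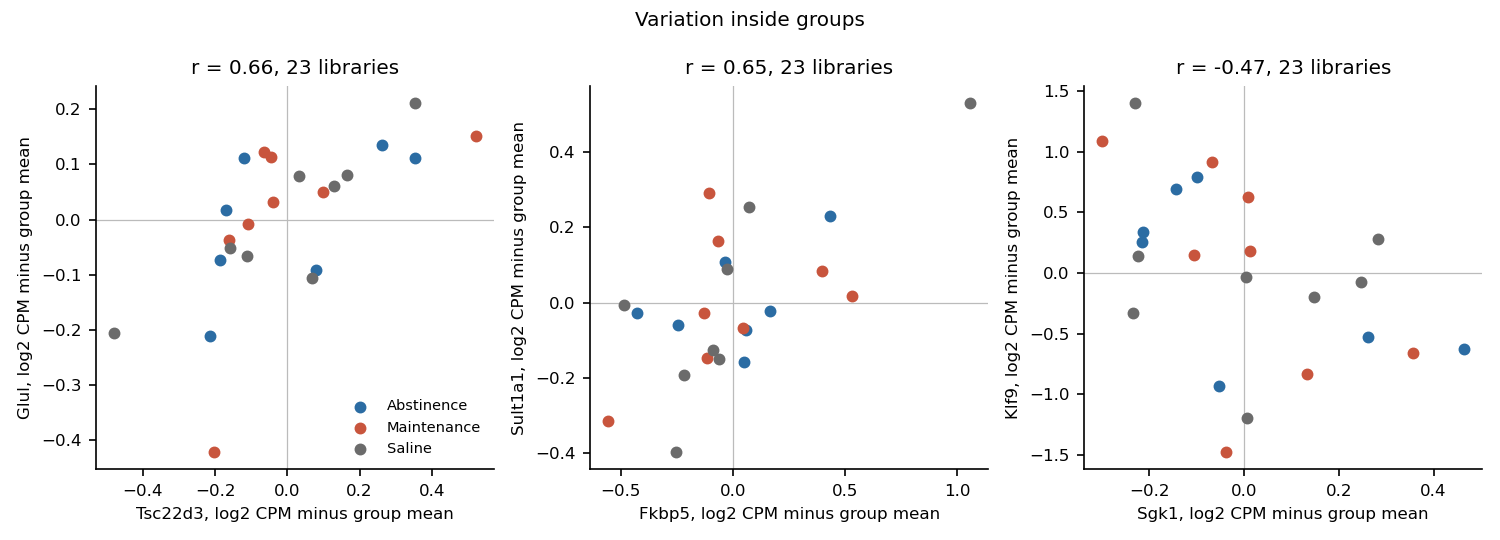
Log2 CPM of pairs of genes in each of 23 libraries after the group mean is taken off, coloured by group: Tsc22d3 against Glul (r = 0.66), Fkbp5 against Sult1a1 (r = 0.65) and Sgk1 against Klf9 (r = -0.47). In the middle panel the Saline library at the top right is Saline 6.

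**Figure D4:**
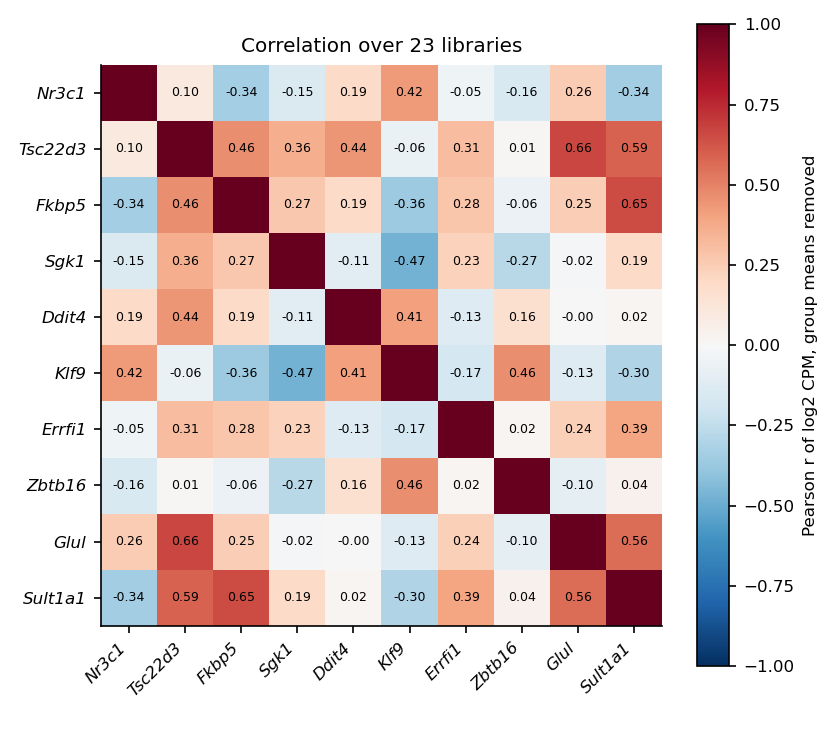
Pearson r between all pairs of the 10 genes over 23 libraries with group means taken off log2 CPM, from blue (negative) to red (positive). Values above 0.5 join Tsc22d3, Glul, Sult1a1 and Fkbp5, from 0.56 to 0.66.

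The genes most alike in this variation were read among 6308 tested genes whose log2 CPM averaged 4 or more. For Tsc22d3 they were Rcan1 (r 0.79), Arrdc3 (0.70) and Klf6 (0.66). For Fkbp5 they were Mxd1 (0.75), G6pdx (0.75) and Abtb1 (0.74). For Sgk1 they were Txnip (0.89), Rgs1 (0.89) and Rgs2 (0.83). None of these 9 was called by edgeR in any comparison. Between groups Arrdc3 came nearest, at 283 CPM in Abstinence, 336 CPM in Maintenance and 277 CPM in Saline (log2 fold change 0.28 ± 0.10 in Maintenance against Saline, adjusted p 0.246).

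Other genes that the receptor induces did not pass in edgeR. Of 30 listed, 27 were tested (Hif3a, Tat and Pck1 were not), and 0 were called by edgeR in any of the 3 comparisons, with 15, 7 and 6 of 27 above 0 and medians of 0.14 in Maintenance against Saline, -0.23 in Abstinence against Saline and -0.36 in Abstinence against Maintenance on the log2 scale, beside 0.01 over all tested genes. Per1, a clock gene that the hormone also induces, was at 9.49 to 20.1 CPM in Abstinence (median 16.2), 12.7 to 25.8 CPM in Maintenance (median 20.5) and 12.3 to 23.4 CPM in Saline (median 17.6). All 7 Abstinence libraries of Per1 lay under the Maintenance median, with a log2 fold change of -0.44 (unadjusted p 0.0149). Of the 27, 4, 4 and 8 had an unadjusted p under 0.05 in the same order of comparisons, and DESeq2 called 1, 0 and 2. The smallest adjusted p in this list was 0.0576, for Acer2 in Abstinence against Maintenance (-1.63 on the log2 scale), a gene singled out after its values were seen. Acer2, a ceramidase, averaged 7.98 ± 4.02 CPM in Abstinence, 24.7 ± 18.7 CPM in Maintenance and 15.8 ± 5.96 CPM in Saline (SD).

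Of 13 inflammatory genes that the hormone represses, such as Il1b, Tnf and Ccl2, 12 were tested and 0 were called by edgeR in any comparison, with smallest adjusted p of 0.336 in Maintenance against Saline, 0.999 in Abstinence against Saline and 0.0927 in Abstinence against Maintenance. Their medians were 0.16, -0.05 and -0.10 in that order, the same signs as those of the induced genes, with 3, 1 and 4 of 12 at an unadjusted p under 0.05 and 0, 0 and 1 called by DESeq2. Of 11 immediate early genes, which cell isolation is known to raise, edgeR called 0 in any comparison (2, 2 and 3 at an unadjusted p under 0.05) and DESeq2 0, 0 and 2.

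**Figure D5:**
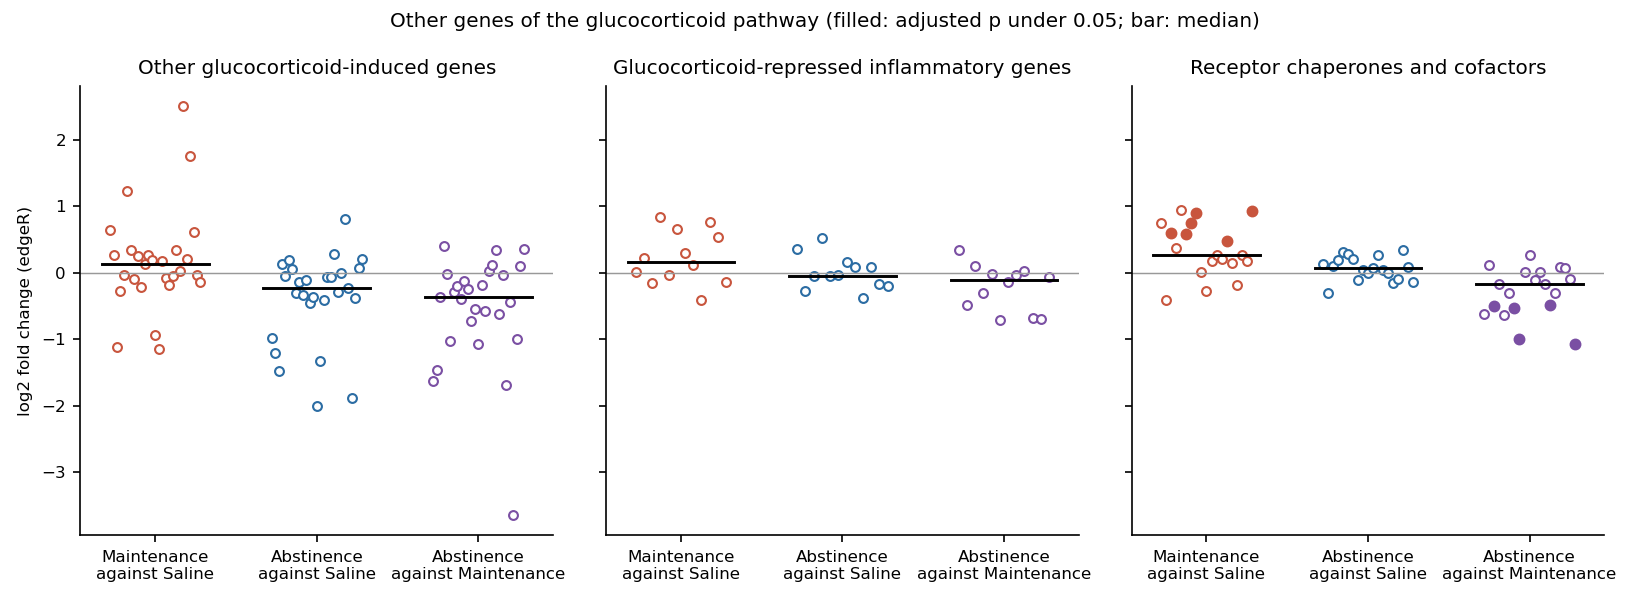
Log2 fold change of every tested gene of 3 lists (27 other induced genes, 12 repressed inflammatory genes, 19 receptor chaperones and cofactors) in the 3 comparisons, with filled points for an adjusted p under 0.05 in edgeR and a bar at the median. Filled points appear among the chaperones and cofactors, 6 in Maintenance against Saline and 5 in Abstinence against Maintenance.

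A few clock genes were lower in Abstinence. Of 16 tested, edgeR called 0 in Maintenance against Saline, 1 lower in Abstinence against Saline (Nr1d1) and 4 lower in Abstinence against Maintenance (Nr1d1, Nr1d2, Per3 and Tef), where 0.707%, 0.0186% and 0.949% of all tested genes were called. In the same order, 4, 7 and 11 of the 16 had an unadjusted p under 0.05 and DESeq2 called 2 (both higher), 2 and 8 (all lower). Fold changes were above 0 for 12, 3 and 3 of the 16, and Arntl, the clock activator BMAL1, averaged 16.6 ± 4.31 CPM in Abstinence, 7.25 ± 4.78 CPM in Maintenance and 10.4 ± 3.40 CPM in Saline (SD; not called, and singled out after its values were seen). The call of Tef ended in 8 of 11 alternatives and in 11 of 23 fits without 1 library (6 of them without an Abstinence library, 3 without a Maintenance and 2 without a Saline one, adjusted p up to 0.115). That of Nr1d1 in Abstinence against Saline ended with neutrophil markers as covariate (-1.26, adjusted p 0.915) and held in the other 10. Nr1d1, the clock repressor REV-ERB alpha, averaged 15.8 ± 4.89 CPM in Abstinence, 37.3 ± 11.3 CPM in Maintenance and 41.5 ± 8.16 CPM in Saline (SD), and all 7 Abstinence libraries lay under the lowest Saline library. Of all tested genes, 0.198% had no overlap in Abstinence against Saline. Per3, a period gene, averaged 13.5 ± 3.32, 29.0 ± 6.86 and 21.3 ± 5.91 CPM in the same groups. The hour of isolation of each library is not stated, so time of day and group cannot be told apart, for the clock genes or for the glucocorticoid-responsive ones.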

How the data were processed

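RNA of 23 microglial libraries was counted per gene. The tools that the submitters' processing notes name are STAR 2.7.10a, Trim Galore 0.6.7 with cutadapt 1.18, DESeq2 1.38.3 and StringTie 2.1.5, on mm10 (GRCm38). Their settings and the read strand are not given in the sources used here. The deposited counts are whole numbers of reads per gene. A second deposited table, called normalized, held the same counts in 17 libraries (0 of 611592 values differed) and served to choose an alternative set. It lacks Saline 5, 6 and 8 and Maintenance 6, 7 and 8, so this set overlaps with the other library subsets.

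Genes were kept with filterByExpr (minimum count 10, minimum total 15), scaled with TMM factors and tested with edgeR 4.0.16 (R 4.3.3) in 1 quasi-likelihood fit of 3 groups, with 3 contrasts, Benjamini-Hochberg adjustment over 16121 genes and a threshold of 0.05. The fit was tested on simulated data. CPM are TMM-scaled; log2 CPM used a prior count of 2. The genes, lists and tests were chosen with earlier results of these data known. Named were the 10 genes, Per1, Fkbp4, Nr3c2, Hsd11b1, up to 4 called genes per list and comparison, and the 3 genes most like Tsc22d3, Fkbp5 and Sgk1 each. Positions and promoter windows are RefSeq's (GRCm38.p6) and exon lengths GENCODE M21's. Alternatives were RLE factors, no filter, a filter of 1 CPM, DESeq2 1.42.0, a replicate block, only the compared groups, marker covariates, library subsets and each library left out. A set without Saline 6 and Maintenance 8 was added after the data were seen.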

Additional observations from a re-analysis of the deposited data

Results flagged for a closer look

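Each of the 10 genes was screened in each of the 3 groups for a library whose gap to its nearest neighbour was large for the range of the group, 30 screens in all. For normally spread values, chance gives such a library in about 1 of 20 screens, and 7 were found. The screens used CPM, whose spread need not be normal, and share the same libraries. Nothing is therefore read from the number found. Tsc22d3 was at 1226 CPM in Maintenance 3, with the next library at 915 CPM. Fkbp5 was at 124 CPM in Saline 6, with the next at 62.7 CPM. Saline 8 was highest for both Ddit4 (28.9 CPM, next 16.9 CPM) and Klf9 (20.3 CPM, next 9.33 CPM). Among the Saline libraries it also had the highest sums of several marker lists. These were oligodendrocyte (5212 CPM), endothelial (1129 CPM), mural (vessel wall, 874 CPM), astrocyte (622 CPM) and choroid plexus and ependymal markers (274 CPM). Its sum of microglial markers, 45857 CPM, was the lowest in Saline. Errfi1 was at 101 CPM in Saline 5, with the next at 68.3 CPM. Zbtb16 was at 15.0 CPM in Maintenance 7, with the next at 6.77 CPM. Glul was lowest in Maintenance 8, at 647 CPM, with the next at 845 CPM, and that library had the choroid plexus and ependymal markers at 75232 CPM. What set these libraries apart was not tested.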

How the results depend on the processing

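The 3 falls in Abstinence against Maintenance (Tsc22d3, Glul, Sult1a1) kept direction and call in all 11 alternatives and all 23 fits with 1 library left out. Of the 10 genes, those called were 1 to 3, 0 and 3 to 4 in Maintenance against Saline, Abstinence against Saline and Abstinence against Maintenance when 1 library was left out. In Maintenance against Saline they were 1 with a replicate block, 0 with either marker covariate fit, 3 each with DESeq2, the 1 CPM filter, the 17 libraries and without Saline 6 and Maintenance 8, and 2 in the other 4 alternatives; in Abstinence against Saline 2 with DESeq2, 1 without Maintenance 6, 7 and 8 and 0 in the other 9; in Abstinence against Maintenance 4 each with DESeq2, the 17 libraries and without Saline 6 and Maintenance 8, and 3 in the other 8. Genes called over the whole table were 42 to 197, 1 to 15 and 89 to 265 with 1 library left out, in that order of comparisons. In Maintenance against Saline they were 351 with DESeq2, 69 with a replicate block, 57 with only the groups compared, 176 with the 17 libraries of the second table and 35 with the neutrophil covariate. In Abstinence against Saline they were 6 with the 1 CPM filter, 36 with DESeq2, 5 with only the groups compared, 15 without Maintenance 6, 7 and 8, 56 with the 17 libraries, and 1 each with either covariate fit and without Saline 6 and Maintenance 8. In Abstinence against Maintenance they were 242 with the 1 CPM filter, 471 with DESeq2, 64 with only the groups compared, 238 with the 17 libraries and 240 without Saline 6 and Maintenance 8. Replicate numbers showed no clear pairing of the libraries: of 8, 7 and 7 same-numbered pairs, 0 correlated above 0.1. Pairs with different numbers were not compared, so whether the numbers follow a batch was not tested. Signs turned only for log2 fold changes that were not called. In Maintenance against Saline, Nr3c1 (0.01) was -0.0013 with a replicate block, -0.089 without Maintenance 6, 7 and 8, -0.12 with the 17 libraries, -0.0073 with oligodendrocyte and astrocyte covariates, -0.062 with the neutrophil covariate and -0.064 to 0.043 with 1 library left out. Fkbp5 (-0.13) was 0.15 with the 17 libraries, 0.17 with the neutrophil covariate, 0.10 without Saline 6 and Maintenance 8 and -0.22 to 0.088 with 1 library left out. Errfi1 (-0.13) was 0.059, 0.024 and -0.23 to 0.0091 with the 17 libraries, the neutrophil covariate and 1 library left out, and Nr1d1 (-0.15) 0.0051 with the 17 libraries. In Abstinence against Saline, Tsc22d3 (-0.02) was 0.079 with the 17 libraries, 0.030 without Saline 6 and Maintenance 8 and -0.086 to 0.036 with 1 left out; Sgk1 (0.05) was -0.045 with the 17 libraries, -0.11 with the neutrophil covariate and -0.038 to 0.088 with 1 left out. Ddit4 (0.02) was -0.085 with oligodendrocyte and astrocyte covariates and -0.10 to 0.23 with 1 left out, Klf9 (0.01) -0.33 with those covariates, -0.12 without Saline 6 and Maintenance 8 and -0.13 to 0.32 with 1 left out, and Errfi1 (-0.12) 0.052 with the neutrophil covariate and -0.17 to 0.018 with 1 left out. Ncor1 (-0.0054) was 0.0022 with RLE factors, 0.0019 with the 1 CPM filter, 0.0021 with DESeq2, 0.037 with the neutrophil covariate and -0.045 to 0.023 with 1 left out. Sgk3 (-0.06) was 0.0026 with oligodendrocyte and astrocyte covariates, and Stip1 (-0.14) and Tef (-0.09) were 0.10 and 0.20 with the neutrophil covariate. In Abstinence against Maintenance, Errfi1 (0.02) was -0.10 without Maintenance 6, 7 and 8, -0.11 with the 17 libraries, -0.0081 with oligodendrocyte and astrocyte covariates, -0.053 without Saline 6 and Maintenance 8 and -0.074 to 0.11 with 1 left out. The cause of these changes was not tested. Zbtb16 was at or near 0 CPM in Abstinence, with 2 of 7 libraries at 0, and no other gene of the 10 had a library at 0. Those 2 libraries, Abstinence 4 and 5, held 76790521 and 82159500 counts. Whether depth limits Zbtb16 was not tested.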
